A study of Homo sapiens with 3 samples.

Results

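The untreated state of HaCaT cells was described from the array labelled Control, 1 of 3 arrays in the series. HaCaT is an established line of human epidermal keratinocytes that became immortal in culture without an introduced oncogene. The control cells were grown at 37 °C and 5% CO2 in RPMI-1640 medium, with fetal bovine serum at 10% and penicillin-streptomycin at 1%, and received no all-trans retinoic acid (0 µM) over the 36 h of the experiment. The other arrays hold HaCaT cells that were given 1 µM all-trans retinoic acid, alone or with nicotinamide, and their values were not used here. No vehicle, cell density or number of dishes is named in the labels. A single array of a single cell line has no biological replicate, so no value below carries an error between cultures and no test was made.

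The members were every gene with a name on the array. Total RNA had been copied into double-stranded cDNA, labelled with the dye Cy3 and bound to probes, 3 for each transcript. Of 45033 transcripts, 42947 carried a gene name, and they gave 23611 gene names. The level of a gene is the mean log2 intensity of its transcripts. Random probes, which match no human transcript and number 2508 on the array, had an intensity of 18.9, a log2 value of 4.24. That is a single summary value over those probes, and 2246 genes (9.51%) lay below it. No spread of the random probes was used, so the bounds below carry no error rate. A gene under 2-fold above the random probes (a log2 level under 5.24, an intensity under 37.7) is called random-probe level. A gene from there to under the median gene (7.95, an intensity of 247.1) is called dim, one from the median to under the 90th percentile (12.03, an intensity of 4181) moderate, and one above that bright. By this rule 5543 genes (23.5%) lay at the random-probe level, 6262 (26.5%) were dim, 9444 (40.0%) were moderate and 2362 (10.0%) were bright. These shares are the background for every list below. Just inside the bright class lay COPS2 at 12.03 and just outside it DNASE2, also at 12.03 when rounded. FN3K at 5.24 was the lowest dim gene, and PLA2G1B, 5.24 when rounded, the highest at the random-probe level. A bright gene is one whose probes are bright. Probes differ in how well they bind, so the order of levels of different genes is not an order of RNA amounts. In RNA from a whole culture, a transcript present in few cells and a low level in all cells cannot be told apart.

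**Figure D1:**
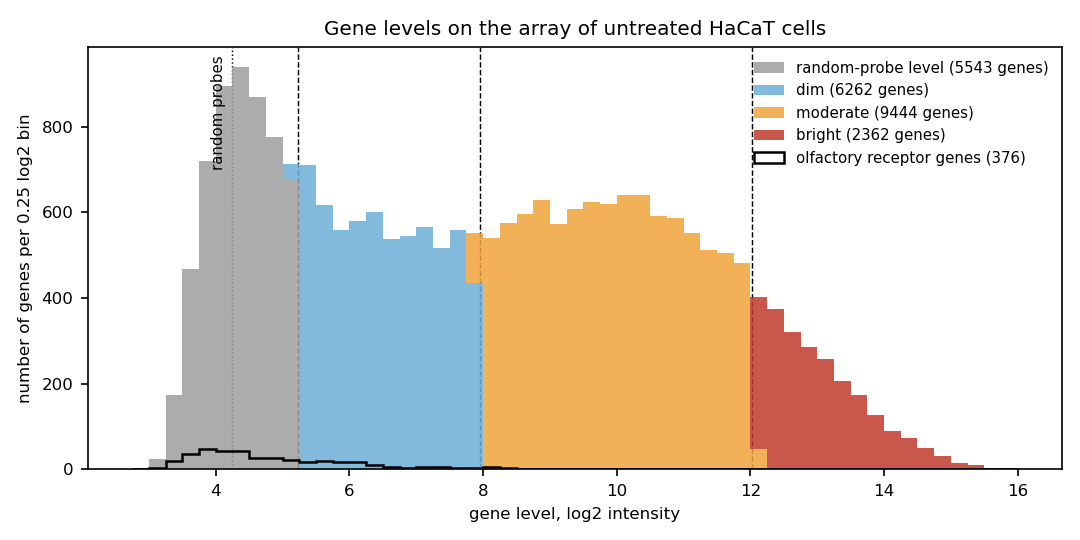
Number of genes (vertical axis, genes per bin of 0.25) by gene level (horizontal axis, log2 intensity) on the array of untreated HaCaT cells, coloured by class, with the random-probe value as a dotted line and the class bounds as dashed lines. The levels run from 2.89 to 15.56, and the black outline of 376 olfactory receptor genes lies mostly among the 5543 genes at the random-probe level.

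Epidermal keratinocytes divide in the basal layer, where the keratins KRT5 and KRT14 form the filament network and integrins and laminin hold the cell to the basement membrane. On leaving that layer they switch to KRT1 and KRT10 and build the cornified envelope, a shell of cross-linked proteins such as involucrin, loricrin and small proline-rich proteins. Desmosomes, adherens junctions and tight junctions join the cells, and lipids made from ceramides, cholesterol and fatty acids seal the outer layers. Retinoic acid acts through the nuclear receptors RAR and RXR, and nicotinamide is turned into NAD through NAMPT.

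A group of 44 gene lists with 1074 measured members was described, sorted into keratinocyte, junction, receptor, metabolic, reference and other-cell genes. A gene may stand in more than 1 list. Among 185 keratinocyte genes 39 were bright and 33 lay at the random-probe level, 21.1% and 17.8%, beside 10.0% and 23.5% of all genes. Among 127 junction genes 22 (17.3%) were bright and 31 (24.4%), near the share of all genes, lay at the random-probe level. Of 247 receptor genes only 11 (4.45%) were bright and 65 (26.3%) lay at the random-probe level. Of 358 metabolic genes 93 (26.0%) were bright and 50 lay at the random-probe level. The median level was 7.73 for keratinocyte, 7.87 for junction, 7.25 for receptor and 10.13 for metabolic genes, beside 7.95 for all genes. Metabolic genes therefore had the largest bright share of these 4 families and receptors the smallest.

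The identity of the line was checked against KRT5, KRT14, KRT8, KRT18 and IVL. KRT5, the type II keratin of basal cells (hg18 12:51194627-51200510), had intensities of 28012 and 31586 on its 2 transcripts and a level of 14.86. KRT14, its usual partner (hg18 17:36992058-36996673), had an intensity of 372 on its only transcript, a level of 8.54 in the lower part of the moderate class. KRT8 (hg18 12:51577237-51585127) and KRT18 (hg18 12:51628921-51632952), the pair of simple epithelia, were both bright. KRT8 had an intensity of 18170, and the 4 transcripts of KRT18 lay between 8421 and 9893. IVL, which encodes involucrin (hg18 1:151147662-151150986), was bright with an intensity of 5316. So 4 of these 5 markers were bright. The levels of KRT14, KRT8 and IVL rest on 1 transcript with 3 probes each.

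All 20 basal keratinocyte genes lay at or above the median gene, 14 of them bright and 6 moderate, with a median level of 12.56. The bright members included most of the machinery that ties a basal cell to its matrix. ITGB4, the hemidesmosome integrin chain, lay at 14.82 (3 transcripts) and its partner ITGA6 was moderate at 10.06. ITGA3, ITGA2 and ITGB1, chains of the laminin and collagen receptors, lay at 13.79, 13.13 and 12.59. LAMB3 at 13.99 and LAMA3 at 13.50, which encode chains of a laminin that anchors the basement membrane, were bright together. COL17A1 at 13.60 and COL7A1 at 12.54, collagens of the hemidesmosome and the anchoring fibrils, were bright as well. CD151 (13.14) and CD44 (12.21), surface proteins of matrix adhesion, and KRT15 (12.91), a keratin of basal and hair follicle stem cells, completed the bright group with TP63. TP63, the master regulator of the stratified epithelial lineage, lay at 12.04, just inside the class, and its 2 transcripts lay at 10.53 and 13.55. The moderate members besides KRT14 and ITGA6 were FERMT1 at 11.68, PLEC at 11.02, DLL1 at 9.05 and DST at 8.61.

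The keratins outside the basal pair fell into separate groups by class. KRT13 and KRT4 form the pair of mucosal epithelia. KRT13 was bright with an intensity of 37759, while KRT4 was moderate at 8.94. The simple-epithelial keratins KRT7 (14.89) and KRT19 (13.96) were bright beside KRT8 and KRT18, and KRT20 (4.29), KRT23 (4.64) and KRT76 (4.65) lay at the random-probe level. Of the other members of that list of 12, KRT3 was moderate at 10.18, and KRT78 (5.45) and KRT12 (5.26) were dim. The wound keratins KRT6A, KRT6B and KRT6C, which epidermis makes after injury, lay at 12.50, 12.47 and 12.50. These genes are near-identical, so probes may bind more than 1 of them. Their partners KRT16 and KRT17 were moderate at 10.51 and dim at 7.62, and KRT75 was dim at 7.10. Of 25 hair and root sheath keratins none was bright and 9 lay at the random-probe level. KRT35 at 11.32, KRT71 at 10.60 and KRT86 at 8.58 were the moderate ones. KRT83 at 7.73 and KRT81, with transcripts at 6.05 and 7.96, were the next in level, and KRT25, KRT34, KRT73, KRT40 and KRT33A, from 3.99 to 4.47, were the lowest.

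Among 6 keratins of the suprabasal layers only KRT80, a widely distributed keratin, was bright, at 12.53. KRT10 was dim at 5.73, an intensity of 53.2 on its only transcript. KRT1 could not be placed in a class from its mean of 8.15, because its transcripts lay at 3.84 and 12.47, the first at the random-probe level and the other bright. KRT77 was moderate at 8.44, KRT2, a keratin of the upper spinous layer, was dim at 5.91, and KRT9, the keratin of palm and sole, lay at the random-probe level at 4.05.

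Most genes of the cornified envelope were dim. Of 32 such genes, 19 were dim, 5 lay at the random-probe level, 6 were moderate and 2 were bright, a median level of 6.46. The bright ones were IVL at 12.38 and EVPL, which encodes envoplakin, at 12.36. DMKN (11.90), CSTA (11.84) and PPL, which encodes periplakin (11.61), came next, and all 3 were moderate. FLG, the precursor of the filaggrin that bundles keratin filaments, was moderate at 8.72. LORICRIN, the chief protein of the mature envelope, was dim at 5.30, with transcripts at 3.93 and 6.68. FLG2 (4.29), SPRR3 (4.80), SPRR2B (4.35), SPRR2E (4.06) and RPTN (5.19) lay at the random-probe level. The late cornified envelope genes, which act last, had no bright member among 17. LCE1A at 9.77 and LCE1F at 9.72 were moderate, 7 genes were dim between 5.35 and 7.49, and 8 lay at the random-probe level between 3.97 and 5.12. Their sequences are alike, so values of single LCE and SPRR genes are uncertain.

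The stretch before the start of transcription is given for a bright and a dim gene of each kind, a keratin and an envelope protein. Whether it bears on their levels was not tested. Each line holds the 80 bases upstream of the start in RefSeq's GRCh38.p14, on the gene's strand, 5′ to 3′, with the letters TATAAA in capitals.
KRT5 (bright, 12:52520395-52520474, minus strand): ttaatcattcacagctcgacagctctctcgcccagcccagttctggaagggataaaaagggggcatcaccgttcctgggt
IVL (bright, 1:152908466-152908545, plus strand): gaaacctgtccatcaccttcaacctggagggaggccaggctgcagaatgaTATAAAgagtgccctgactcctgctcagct
KRT10 (dim, 17:40822615-40822694, minus strand): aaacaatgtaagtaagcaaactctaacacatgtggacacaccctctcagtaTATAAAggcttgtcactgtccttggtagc
LORICRIN (dim, 1:153259607-153259686, plus strand): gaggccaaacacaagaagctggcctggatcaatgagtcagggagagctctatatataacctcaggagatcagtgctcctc
TATAAA, the core letters of the TATA box, starts 30 bases before the IVL start and 29 before that of KRT10, and those exact letters do not occur in the other 2 windows. The motif thus stands in 1 bright and 1 dim gene. Between 40 and 16 bases before the start it occurs on the gene's strand in 2.54% of 27305 RefSeq promoters, and on either strand anywhere in the 300 bases of 12.0%. A match of letters is a description and not a binding site. Promoters were found for 64.8% of the gene names, under the 80% needed, so a check of promoter sequence by class is void and no value is given.

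The S100 proteins, small calcium-binding proteins, were spread over all classes. S100A10 (13.82), S100A16 (13.49), S100A2 (13.47), S100A11 (12.87) and S100A6 (12.09) were bright. S100A14 at 11.94, S100A3 at 11.52, S100A13 at 10.41 and S100A4 at 10.20 were moderate. The alarmins that inflamed epidermis makes were in lower classes. S100A9 was moderate at 8.56, its partner S100A8 dim at 6.70, S100A7 dim at 6.28, and S100A7A (4.11) and S100A12 (4.17) lay at the random-probe level. S100A5 (7.49) and S100A1 (7.37) were dim.

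Of 26 transcription factors of the epidermis 4 were bright, 12 moderate, 8 dim and 2 at the random-probe level. ELF3, an epithelial ETS factor, lay at 13.30. TFAP2A lay at 12.23, TP63 at 12.04 and EHF at 11.97, the last of these moderate. HOPX (3.88) and PRDM1 (4.72), both linked to terminal differentiation, lay at the random-probe level. MAF (5.46), ZNF750 (6.09) and POU2F3 (6.13) were dim. Of 26 proteases and inhibitors of desquamation, the shedding of the outer cells, 6 were bright and 12 moderate. CTSD, a lysosomal protease, lay at 14.60. The inhibitors SPINT2 (14.09) and SPINT1 (13.08) were bright together with the membrane protease ST14 (13.06), which they block. KLK10, a kallikrein, lay at 13.03. SERPINB12 (4.14), SPINK6 (4.61) and SERPINB3 (5.06) lay at the random-probe level, and SERPINB4 (5.67) and KLK12 (5.85) were dim. SERPINB3 and SERPINB4 are near-identical.

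**Figure D2:**
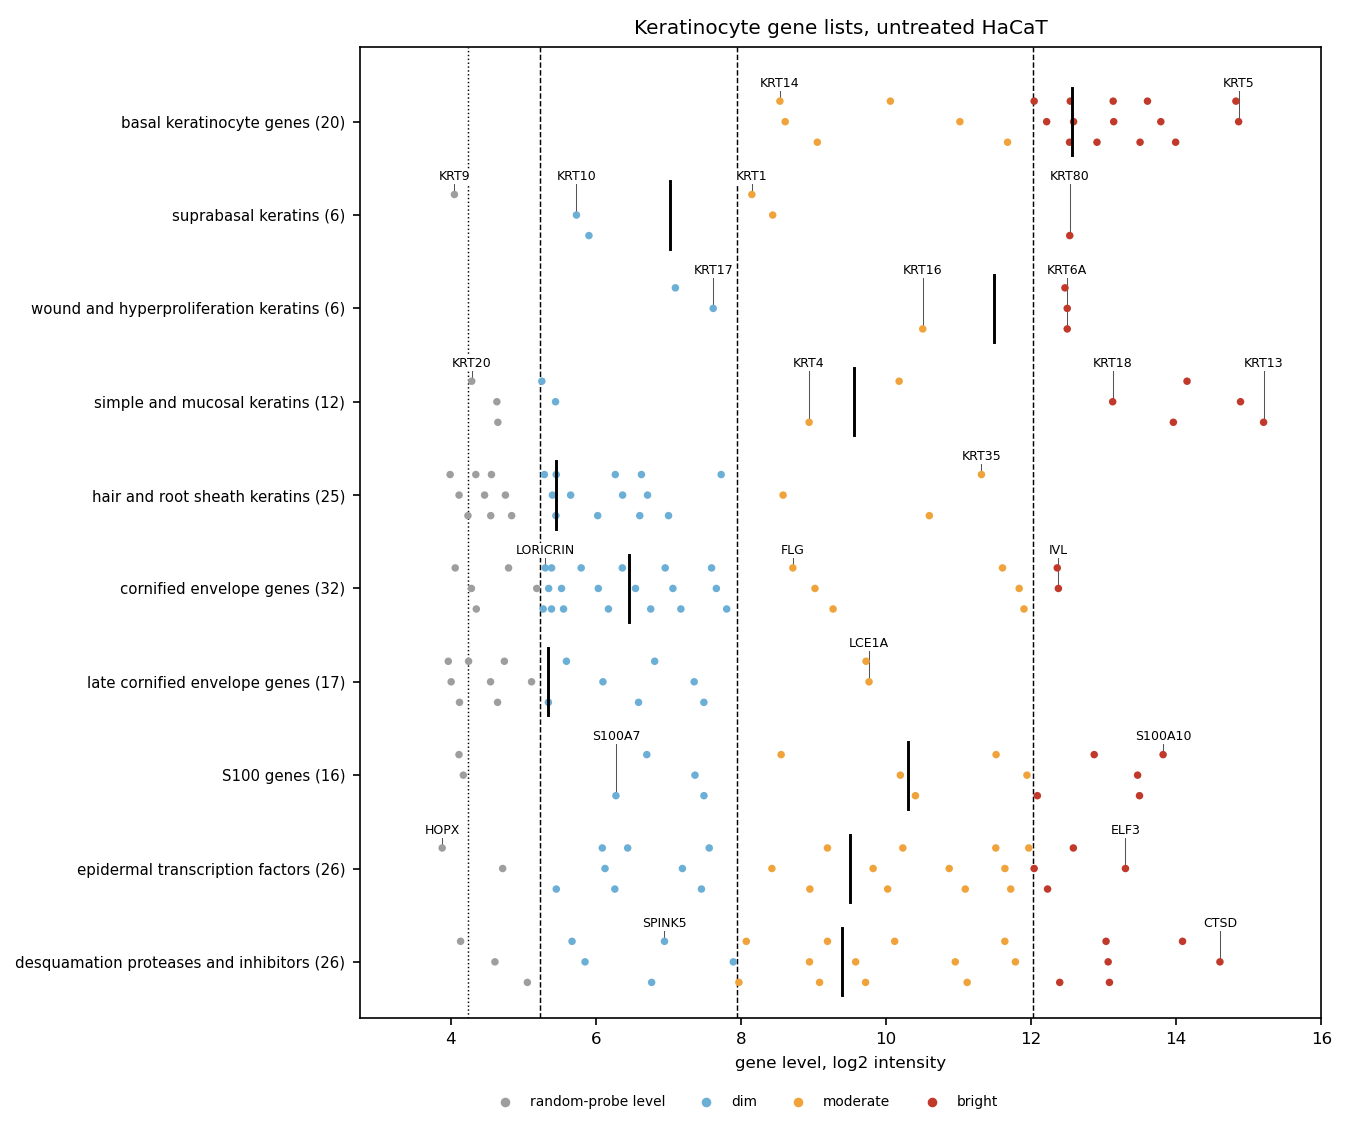
Gene level (horizontal axis, log2 intensity) of every member of the keratinocyte lists (rows, number of members in brackets) in untreated HaCaT cells, each point 1 gene in the colour of its class and the black bar the list median. All 20 basal genes lie right of the median line at 7.95, while most of 32 cornified envelope and 17 late cornified envelope genes lie left of it.

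Neighbouring genes of the large epidermal clusters differed in class. In the epidermal differentiation complex on chromosome 1 (hg18 150222016 to 151871138) 58 genes gave 6 bright, 8 moderate, 23 dim and 21 random-probe-level members. Of the bright members, S100A10 and S100A11 lie at one end and S100A6, S100A2 and S100A16 at the other, and IVL is the only bright gene between them. FLG, TCHH, LCE1F and LCE1A were the moderate genes between the S100 groups. In the type II keratin cluster on chromosome 12 (hg18 50849047 to 51632952) 9 of 29 entries were bright. KRT80 and KRT7 lie at one end, KRT8 and KRT18 at the other, and the KRT6 genes and KRT5 side by side in the middle. The file also holds an entry it names KRT6C, at 12.70, that lies at the position of KRT6A, while the current KRT6C carries the file's older name. In the type I keratin cluster on chromosome 17 (hg18 36066042 to 37034335) 4 of 52 genes were bright and 19 lay at the random-probe level. KRT13, KRT15 and KRT19 lie next to each other there. The other bright entry is KRT10-AS1 at 12.37, whose stretch overlaps that of dim KRT10. Double-stranded cDNA was labelled, so signal of a gene and its antisense neighbour cannot be told apart where they overlap.

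**Figure D3:**
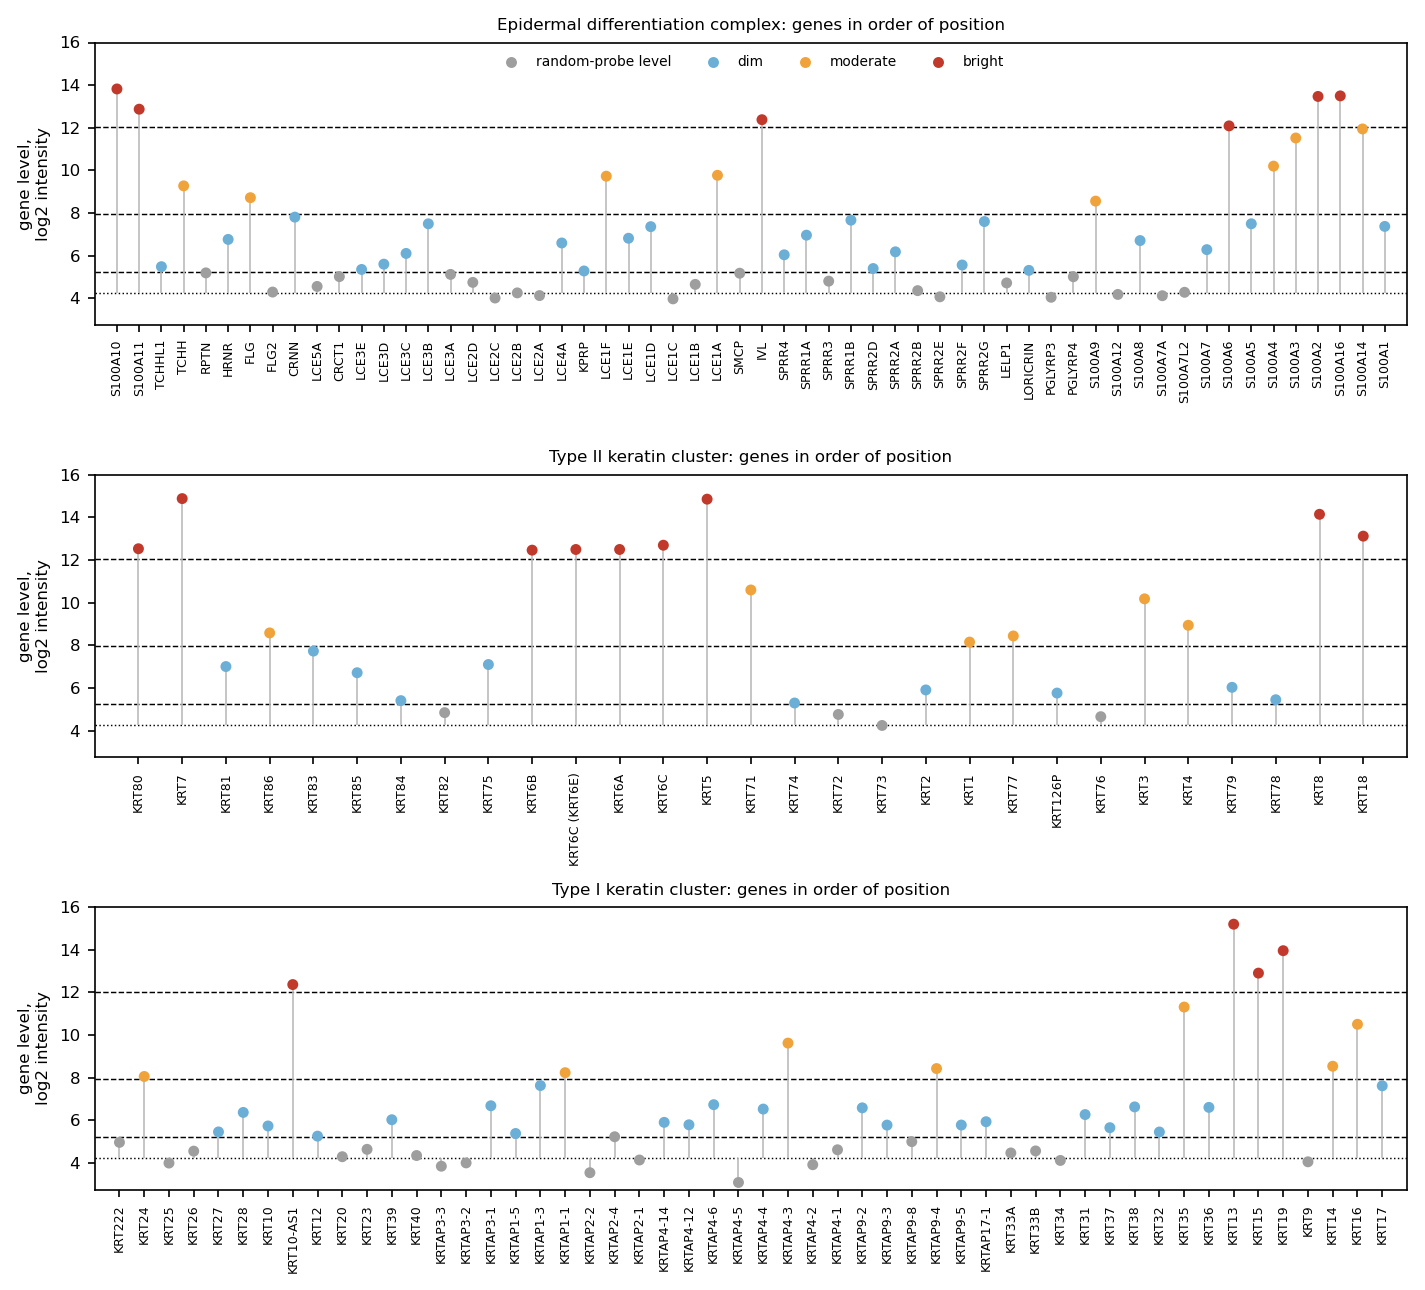
Gene level (vertical axis, log2 intensity) of the genes of 3 clusters in order of position (horizontal axis, not to scale), each stem rising from the random-probe value and each dot coloured by class, with KRT6C (KRT6E) the current KRT6C gene under its older file name. IVL stands alone between the S100 genes, and KRT13, KRT15 and KRT19 stand together at 12.91 to 15.20.

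The kallikrein cluster on chromosome 19 (hg18 56014215 to 56279314) held 16 genes, 1 of them bright. In its middle KLK5 (10.96), KLK6 (11.78), KLK7 (9.08) and KLK8 (9.58), proteases of the outer epidermis, were moderate side by side. Toward one end KLK3, which encodes prostate-specific antigen, lay at the random-probe level (4.95). Its neighbours were KLK15, at the random-probe level (4.56), and KLK2, dim at 6.22. KLK4 beyond KLK2 lay at the random-probe level (4.80), and the end gene KLK1 was moderate (8.46). The HOX clusters, whose genes mark position along the body, also differed. In HOXA 10 of 11 genes were moderate or bright, with HOXA10 at 12.37 and HOXA13 alone at the random-probe level, at 3.95. In HOXC 8 of 9 genes were moderate or bright, HOXC11 at 12.37 and HOXC10 at 12.21 in the bright class. In HOXB only HOXB7, at 10.01, reached the median of all genes, and in HOXD none of 9 did.

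Desmosomes, the spot-like junctions that anchor keratin filaments, had 6 bright, 5 moderate and 3 random-probe-level genes among 14. JUP, which encodes plakoglobin, lay at 14.94, its 3 transcripts between 14.65 and 15.27. DSP, the plakin that binds the keratin filaments, lay at 14.14, PERP at 13.29, and the plakophilins PKP3 and PKP1 at 12.85 and 12.10. PKP4 (10.34) and PKP2 (10.26) were moderate. The desmosomal cadherins, which hold the cells together outside the membrane, divided by position in their cluster on chromosome 18 (hg18 26825028 to 27380855). DSG2, the cadherin of simple epithelia and basal cells, was bright at 12.81, with transcripts at 12.60 and 13.03. DSG3, the cadherin of the lower epidermis, was moderate at 10.59, with transcripts at 8.59 and 12.59. DSC3 at 11.77 and DSC2 at 8.31 were moderate. DSC1 (4.18), DSG1 (4.66) and DSG4 (4.22), which belong to the upper epidermis and the hair, lay at the random-probe level, and these 3 genes are neighbours in the cluster, between DSC2 and DSG3.

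Of 17 genes of the adherens junction, which couples cadherins to actin, 7 were bright, 4 moderate, 3 dim and 3 at the random-probe level. CDH3 (P-cadherin, of basal cells) lay at 14.39 and CDH1 (E-cadherin) at 12.37, its transcripts at 11.66, 12.66 and 12.80. CDH2 (N-cadherin), a cadherin better known from neural and mesenchymal cells, was moderate at 11.92. The catenins of this junction were bright, CTNND1 at 13.76, CTNNA1 at 13.59 and CTNNB1 at 12.98. VCL (12.38) and NECTIN2 (12.19) were also bright. NECTIN1 (4 transcripts from 9.96 to 12.94), NECTIN4 (10.85) and NECTIN3 (7.98) were moderate, and CDH5 (7.70), AFDN (6.98) and CDH4 (5.33) were dim. The catenins of other tissues, CTNNA2 (4.63), CTNNA3 (4.02) and CTNND2 (3.95), lay at the random-probe level.

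Claudins form the seal of the tight junction. Of 21 claudins 3 were bright, 2 moderate, 8 dim and 8 at the random-probe level. CLDN7 lay at 14.19, CLDN4 at 13.39 and CLDN1, whose loss opens the epidermal water barrier, at 13.10. The 2 transcripts of CLDN1 had intensities of 4914 and 15709, both bright. CLDN12 (11.20) and CLDN15 (10.62) were moderate. The lowest were CLDN10 (4.27), CLDN11 (4.34), CLDN23 (4.41), CLDN8 (4.58) and CLDN17 (4.67). Of 27 scaffold and polarity genes of the tight junction 15 were moderate and 1 was bright, F11R (JAM-A), at 12.83. TJP1 (11.69), the scaffold ZO-1, PRKCI (11.70) and MARVELD2 (11.23), the tricellulin of 3-cell contacts, were moderate. JAM2 (3.62), CRB1 (4.24) and MAGI2 (4.44) lay at the random-probe level, and MAGI1 (5.65) and CRB2 (5.74) were dim.

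Gap junctions are the channels between neighbouring cells, and their list, which also holds the pannexins, had no bright gene among 22. GJB5 (11.62), GJC1 (10.17), PANX1 (10.15) and PANX2 (9.28) were among the highest, all moderate. The transcripts of PANX1 ran from 8.93 to 11.73 and those of PANX2 from 7.35, a dim value, to 11.22. GJB2, a connexin of hyperproliferative epidermis, and GJB6 were named after their values were seen. GJB2 had intensities of 15.2 and 30.4 on its transcripts, and GJB6 a level of 4.47, both at the random-probe level. Among the lowest were PANX3 (3.24), GJB1 (3.79), GJA5 (3.88) and GJA10 (4.09). Of 26 integrins 5 were bright. ITGB5, a chain of vitronectin receptors, at 12.17 joined ITGB4, ITGA3, ITGA2 and ITGB1 of the basal list. ITGA10 (3.89), ITGA8 (4.53), ITGB3 (4.67), ITGA11 (4.89) and ITGAD (4.98), chains of cartilage, mesenchyme, platelets and leukocytes, lay at the random-probe level.

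Growth factor receptors included 3 bright, 20 moderate, 8 dim and 8 random-probe-level genes among 39. EGFR, the receptor through which EGF and TGF-alpha drive keratinocyte growth, lay at 13.34. Its 6 transcripts ran from 11.90 to 14.95, and 5 of them were bright. DDR1, a collagen receptor, lay at 13.40 and EPHB4 at 12.70. EPHA1 (11.73) and IGF1R (11.57) were moderate. The vascular receptors FLT1 (3.84) and KDR (3.89), the mesenchymal PDGFRA (4.17), the neurotrophin receptor NTRK3 (4.25) and MERTK (4.35) lay at the random-probe level.

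Nuclear receptors, which switch genes in response to hormones and vitamins, had 1 bright, 21 moderate, 13 dim and 13 random-probe-level genes among 48. NR2F2, an orphan receptor, was bright at 12.16. VDR, the vitamin D receptor, lay at 11.86 with transcripts at 11.24 and 12.47. RARG, the main retinoic acid receptor of epidermis, had intensities of 3118 and 3793, a level of 11.75. RARA lay at 10.64, its 4 transcripts between 10.39 and 11.01. RXRA, the partner of both, lay at 11.11, its 5 transcripts between 10.19 and 12.11, and RXRB at 11.48. RARB had intensities of 13.8, 14.2 and 36.5 on its 3 transcripts, all at the random-probe level. NR2F6 (11.26) was also moderate. Among the lowest were NR1H4 (3.97), RARB (4.27), NR4A3 (4.30) and NR0B2 (4.43).

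Of 54 cytokine receptors 4 were bright, 21 moderate, 20 dim and 9 at the random-probe level. The bright ones were TNFRSF12A (13.44), the receptor of TWEAK, LTBR (13.22), TNFRSF21 (13.13) and IFNGR2 (12.40), a chain of the interferon gamma receptor. TNFRSF10A, a TRAIL receptor, lay at 11.69. IL23R (3.81), IL2RA (4.14), IL5RA (4.15), IL17RB (4.32) and IL21R (4.50), known mainly from lymphoid and myeloid cells, lay at the random-probe level. Innate sensors had no bright gene among 20. STING1 (9.71), TLR3 (9.35), NOD1 (9.16) and IFIH1 (8.34), sensors of nucleic acids or bacterial wall, were moderate. TLR1 (7.71), NLRP1 (7.62), CD14 (7.57), NOD2 (7.55), RIGI (6.67) and TLR4 (6.30) were dim, as were TLR9 (5.92), TLR6 (5.84), TLR8 (5.46), TLR5 (5.36), TLR10 (5.30) and NLRP3 (5.26). TLR2 (4.27), LY96 (4.17), AIM2 (4.09) and TLR7 (3.94) lay at the random-probe level.

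G protein-coupled receptors and TRP channels with a role in skin had the largest random-probe-level share of the receptor lists, 47.5% (29 of 61). The share of all genes was 23.5%, and 2 genes of the list were bright. HCAR3 (13.02) and HCAR2 (12.21), receptors of hydroxycarboxylic acids of which HCAR2 binds nicotinic acid, were the bright ones. Each had 1 transcript, and the genes are near-identical, so their signals may not be separate. ADORA2B (11.64) and P2RY6 (11.05), receptors of adenosine and nucleotides, were among the moderate ones. ADRA2A (3.86), OPRM1 (3.92), S1PR3 (4.04), MC2R (4.05) and F2RL2 (4.09) were the lowest. Of 25 receptors of the Notch, Wnt and Hedgehog pathways 14 were moderate. RYK, a Wnt co-receptor, was bright at 12.45, and LRP6 (11.48), LRP5 (11.47), SMO (11.39) and FZD6 (10.73) were moderate. LGR5 (3.74), a stem cell marker of hair follicle and gut, and FZD10 (4.33) lay at the random-probe level. ROR2 (5.79), NOTCH4 (5.98) and FZD3 (6.38) were dim.

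**Figure D4:**
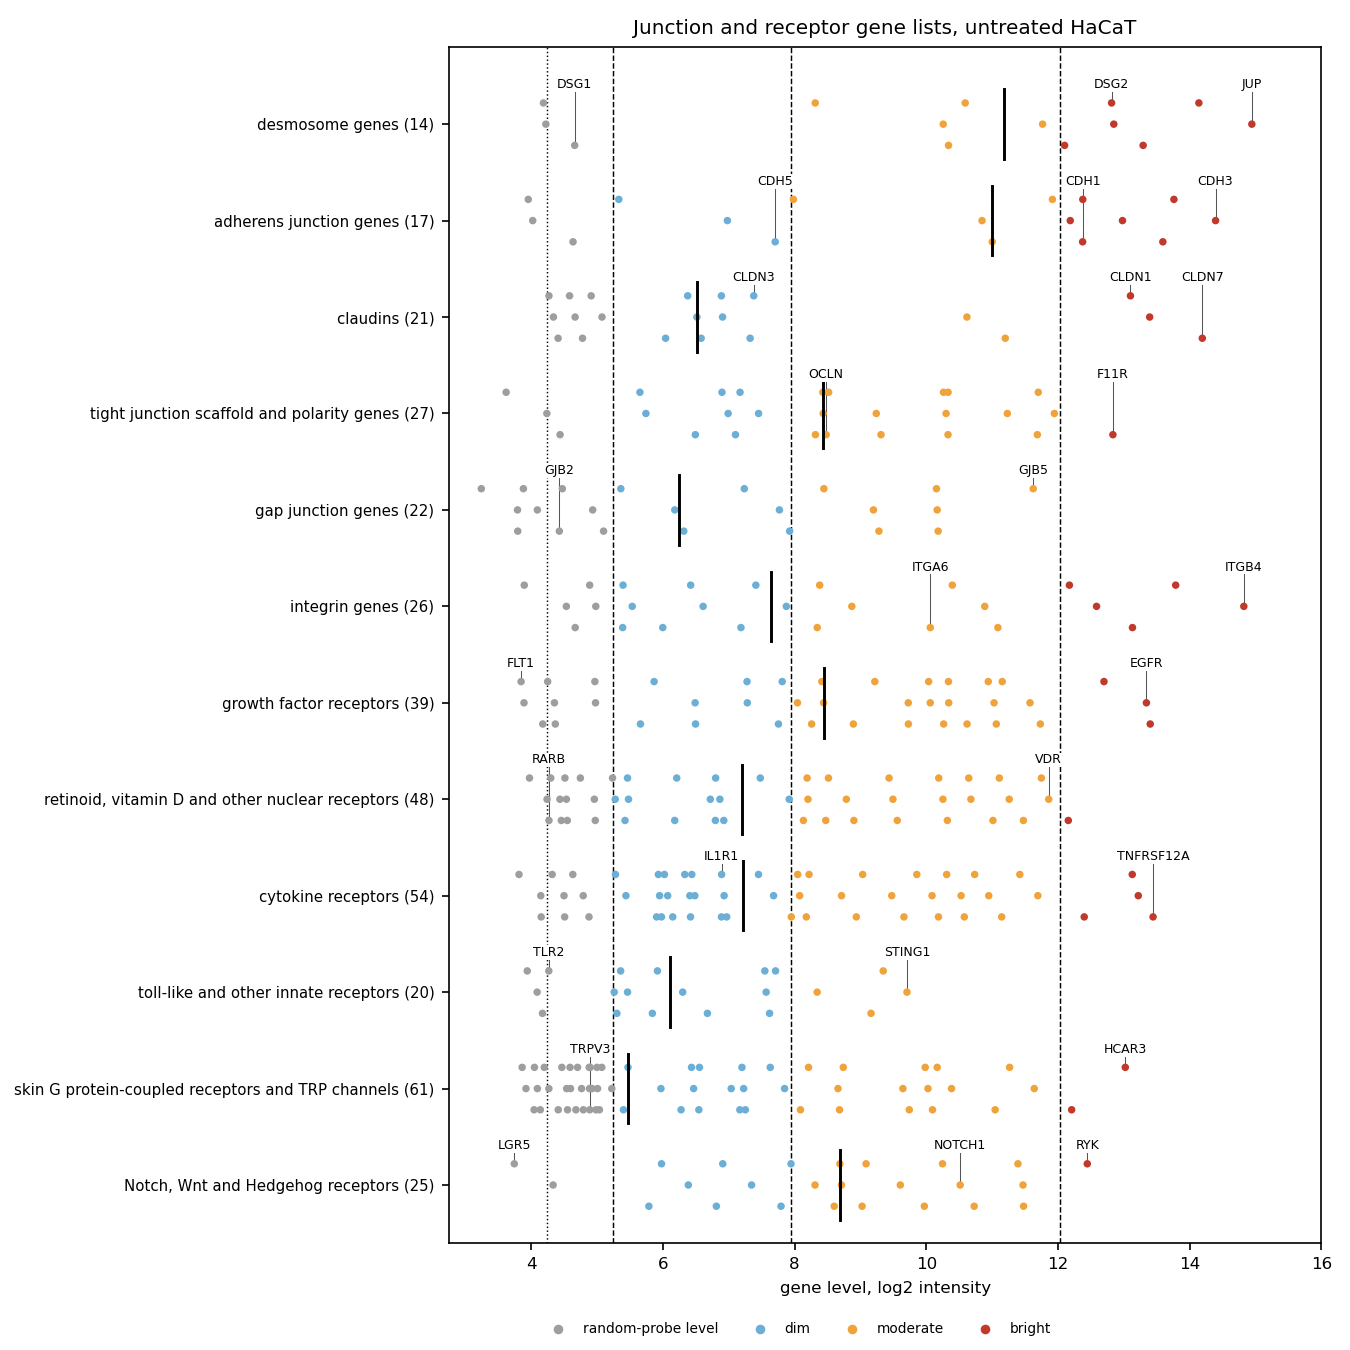
Gene level (horizontal axis, log2 intensity) of every member of the junction and receptor lists (rows, number of members in brackets) in untreated HaCaT cells, each point 1 gene in the colour of its class and the black bar the list median. Desmosome genes form separate groups from 4.18 to 4.66 and from 8.31 to 14.94, and receptors show 11 bright genes of 247.

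Central carbon metabolism had large bright shares. Of 30 glycolysis genes 11 were bright, with a median level of 11.48. PKM (15.37), GAPDH (15.21), ALDOA (15.16), ENO1 (14.17) and PFKP (13.97), enzymes of the pathway from glucose to pyruvate, were the highest. Isoforms of other tissues were among the lowest. HK3 (4.70) lay at the random-probe level, and PKLR (5.66) and LDHC (5.86) were dim. The pentose phosphate pathway, which supplies NADPH and ribose, had 5 bright genes among 9. Among these were TKT (14.56), PGD (14.38), TALDO1 (13.28) and PGLS (12.44). RPIA (11.41) and RPE (11.08) were moderate, and the transketolase-like genes TKTL2 (5.58) and TKTL1 (3.78) were dim and at the random-probe level.

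Of 27 citric acid cycle genes 13 were bright and 12 moderate, a median of 11.64. MDH2 (14.28), CS (13.88), SDHA (13.59), PDHA1 (13.54) and IDH1 (13.17) were the highest. PDHA2 (5.09), the testis form, lay at the random-probe level, PCK1 (6.24) was dim, and PC (8.96), MDH1 (9.68) and DLD (10.18) were moderate. Of 36 genes of the respiratory chain and ATP synthase 17 were bright and none lay at the random-probe level. ATP5F1B (14.07), NDUFV1 (14.06), UQCRC1 (13.86) and CYC1 (13.77) were among the highest. The dim ones included the muscle, heart, lung or testis isoforms COX4I2 (6.55), COX6A2 (6.76), COX6B2 (7.51) and COX7A1 (7.60). The other dim gene, NDUFS1, is one whose transcripts disagree, as described below.

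Lipid synthesis was mostly moderate. Of 28 genes of cholesterol synthesis, a source of barrier lipid, 8 were bright and 18 moderate, with EBP (13.67), FDPS (13.31), FDFT1 (12.70) and NSDHL (12.43) at the top. IDI2 (5.96) was dim, and TM7SF2 (8.96), INSIG1 (9.26) and SREBF1 (9.38) were moderate. Of 21 fatty acid genes 13 were moderate and 3 bright. The bright ones were ACLY (13.12), FADS3 (12.21) and SCD (12.09), and FASN (11.96) and FADS1 (11.82) were moderate. ELOVL2 (4.22), ELOVL4 (4.88), which makes the very long chains of skin ceramides, and ELOVL3 (5.07) lay at the random-probe level, and ACSL6 (5.24) and SCD5 (7.80) were dim. Of 34 ceramide and barrier lipid genes 3 were bright, 15 moderate, 11 dim and 5 at the random-probe level. CERS2 (13.02) and SPTLC1 (12.16) were among the bright ones, and KDSR (11.13) and SLC27A4 (11.05) moderate. The 5 at the random-probe level were DEGS2 (4.19), CYP4F22 (4.65), PNPLA1 (4.83), ACER1 (4.84) and ALOX12B (5.21).

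Retinoid genes make, carry and break down retinoic acid. Of 28, 4 were bright, 9 moderate, 7 dim and 8 at the random-probe level, a median of 7.51. DHRS3, which turns retinal back into retinol, had intensities of 9742 and 12328 on its transcripts, a level of 13.42. FABP5 (12.45) and CRABP2 (12.44), which carry retinoic acid to its receptors, and RDH11 (12.05) were bright. DHRS4 lay at 11.55. CYP26A1, the enzyme that breaks retinoic acid down and is a standard reporter of its action, had an intensity of 77.3 on its only transcript, a dim level of 6.27. ALDH1A2 (3.41), LRAT (3.75), RBP4 (3.98), CRABP1 (4.51) and RDH12 (4.54), enzymes and carriers known from embryo, liver or retina, lay at the random-probe level.

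Of 31 NAD and nicotinamide genes 2 were bright, 16 moderate, 8 dim and 5 at the random-probe level. The bright ones were the NAD-consuming polymerases PARP1 (12.91) and PARP2 (12.04). NAMPT, which starts the path from nicotinamide to NAD, lay at 11.63, with transcripts at 11.23, 11.58 and 12.09. NNT (11.74) and NADSYN1 (11.63) were moderate. NNMT, which removes nicotinamide by methylation, was dim at 5.53 and is named after its value was seen. TDO2 (4.12), HAAO (4.73) and IDO1 (4.91), enzymes of the path from tryptophan, lay at the random-probe level with SIRT4 (4.78) and NMNAT3 (4.83).

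Antioxidant genes had 13 bright and 15 moderate members among 36, a median of 11.72. GPX1 (14.44), PRDX1 (14.38), PRDX2 (14.07), GSTP1 (13.97) and PRDX5 (13.81), which remove peroxides or conjugate glutathione, were the highest. GPX5 (4.00), GSTA1 (4.21), GSTM3 (4.65) and GSTA2 (4.73) lay at the random-probe level and GPX3 (5.58) was dim. The cytochromes P450 of families 1 to 3, which oxidise drugs and steroids, were mostly low, with 10 of 23 at the random-probe level and 10 dim. CYP2S1 (13.04), a form of skin and airway, and CYP1B1 (12.57) were bright, and CYP1A1 (10.94) was moderate. CYP2D6 (7.76) and CYP2J2 (7.70) were dim. CYP2A13 (3.87), CYP3A43 (4.25), CYP2A6 (4.49), CYP2R1 (4.49) and CYP2C19 (4.57) were the lowest.

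Of 37 genes of amino acid and one-carbon metabolism 12 were bright and 15 moderate. AHCY (15.12), SHMT2 (13.80), PHGDH (13.26), GOT2 (13.11) and ODC1 (13.03), enzymes of the methyl, serine, aspartate and polyamine paths, were the highest. ARG1 (4.17) and TAT (4.53), enzymes of liver, lay at the random-probe level, and UROC1 (5.28) and HAL (5.44), of the histidine path that gives urocanic acid in the outer epidermis, were dim. Of 18 genes of water, glycerol and hyaluronan handling none was bright. AQP3, the water and glycerol channel of keratinocytes, lay at 11.40 and HAS3, a hyaluronan synthase, at 11.39. HYAL2 (10.85), HAS2 (9.69), HYAL1 (8.74) and CEMIP (8.04) were moderate as well. HYAL3 (7.36), AQP8 (6.61), AQP2 (6.12), AQP5 (5.96), AQP10 (5.62) and AQP6 (5.48) were dim. AQP7 (5.13), AQP1 (4.97), HYAL4 (4.60), AQP9 (4.55), AQP4 (4.54) and HAS1 (3.68) lay at the random-probe level, so AQP3 was the only aquaporin of this list above the median gene.

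Reference lists show how far the bright class reaches. The brightest 10 genes of all were PFN1 (15.56), ACTB (15.43), SLC7A5 (15.40), CNN2 (15.39), SLC3A2 (15.38), HSPB1 (15.37), PKM (15.37), LOC400590 (15.29), EEF1A1P9 (15.28) and PPP1R14B (15.26). SLC7A5 and SLC3A2 encode the light and heavy chains of the LAT1 amino acid transporter, and PFN1 and ACTB belong to the actin system. EEF1A1P9 is a copy of a translation factor gene, and its value cannot be told apart from that of its parent. Of 41 ribosomal protein genes 37 were bright and 4 moderate, from 11.24 to 14.89. Of 30 proliferation genes 20 were bright and 10 moderate, with MCM7 (14.40), CDK4 (14.09), AURKB (14.04), PLK1 (13.83) and CDC20 (13.72) at the top and CCNE1 (9.12) and CCNE2 (9.47) at the bottom. Those lists lay wholly at or above the median gene.

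Of 14 genes of cell cycle control and immortalization 3 were bright, among them MYC (13.76) and CDKN1A (12.08). E2F1 (10.82), CDKN2A (10.51), RB1 (9.15), BMI1 (8.85), CDKN2B (8.30) and CDKN2C (8.06) were moderate. The transcripts of CDKN2B lay apart, at 5.68, a dim value, and at 10.91, so its mean places it poorly. The 6 transcripts of CDKN2A ran from 7.34, also dim, to 11.24. MDM2 (7.76), CDKN1B (6.86), MYCN (6.25) and CDKN1C (5.52) were dim. TERT, the catalytic part of telomerase, lay at the random-probe level at 4.92, with intensities of 20.4 and 45.0 on its transcripts.

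Markers of cells that a keratinocyte line should not hold were low in most cases. Of 86 such genes 44 (51.2%) lay at the random-probe level, 30 were dim, 11 moderate and 1 bright. All 10 melanocyte markers lay under the median gene. Of these MITF (7.28), PMEL (6.84), SOX10 (6.61) and OCA2 (5.44) were dim, and TYR (4.05), TYRP1 (4.05), MLANA (4.36), GPR143 (4.62), SLC45A2 (4.94) and DCT (4.96) at the random-probe level. Of 15 fibroblast markers FBLN1 (10.37), TWIST1 (9.34) and COL1A1 (8.55) were moderate. TWIST2 (7.41), VIM (6.59) and COL3A1 (5.88) were dim, and COL1A2 (5.08), THY1 (5.03), PDGFRB (4.97), COL6A3 (4.64), DCN (4.40), FBN1 (4.37), FAP (4.34), LUM (4.19) and PDGFRA (4.17) lay at the random-probe level. VIM, the filament protein of mesenchymal cells and of many cultured lines, had 4 transcripts between 4.75 and 7.78.

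Of 20 leukocyte markers CD68 (10.79), a lysosomal protein, and CD3E (7.97) were moderate. PTPRC, the common leukocyte antigen, lay at the random-probe level (5.07), as did, among others, CD207 (3.74), MS4A1 (4.36), CD3D (4.40), CD8A (4.52), CD163 (4.73) and KLRD1 (4.74). The other 10 were dim, from TPSAB1 at 5.63 to CD14 at 7.57. Of 11 endothelial markers EGFL7 (8.76) was moderate, CDH5, ESAM (6.90), VWF (6.02) and ERG (5.47) were dim, and CLDN5 (4.91), EMCN (4.68), PECAM1 (4.44), TEK (4.28), KDR (3.89) and TIE1 (3.76) lay at the random-probe level. Of 10 Merkel cell and neuronal markers SYP (9.80) and the enolase ENO2 (9.41) were moderate, SOX2 (7.19) and RBFOX3 (5.60) dim, and ATOH1 (4.84), CHGA (4.66), PIEZO2 (4.40), GFAP (4.13), SNAP25 (3.83) and STMN2 (3.28) at the random-probe level.

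Of 20 markers of liver and other organs ACTA1, the actin of skeletal muscle, was the bright one at 14.37. Actin genes are near-identical over their coding part, so its probes may bind other actins, which was not tested. CKM (10.68), HBA1 (9.22) and HBB (8.55) were moderate, and HBA1 has a near-identical copy. SFTPC (7.74), SFTPB (6.34), APOA1 (6.15), TTR (6.06), TNNT2 (5.97), INS (5.96) and MYH6 (5.26) were dim. TF (5.20), GCG (5.19), UMOD (5.04), MYH7 (4.83), CPA1 (4.78), ALB (4.46), APOB (4.26), FGB (4.23) and AMY2A (3.98) lay at the random-probe level.

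**Figure D5:**
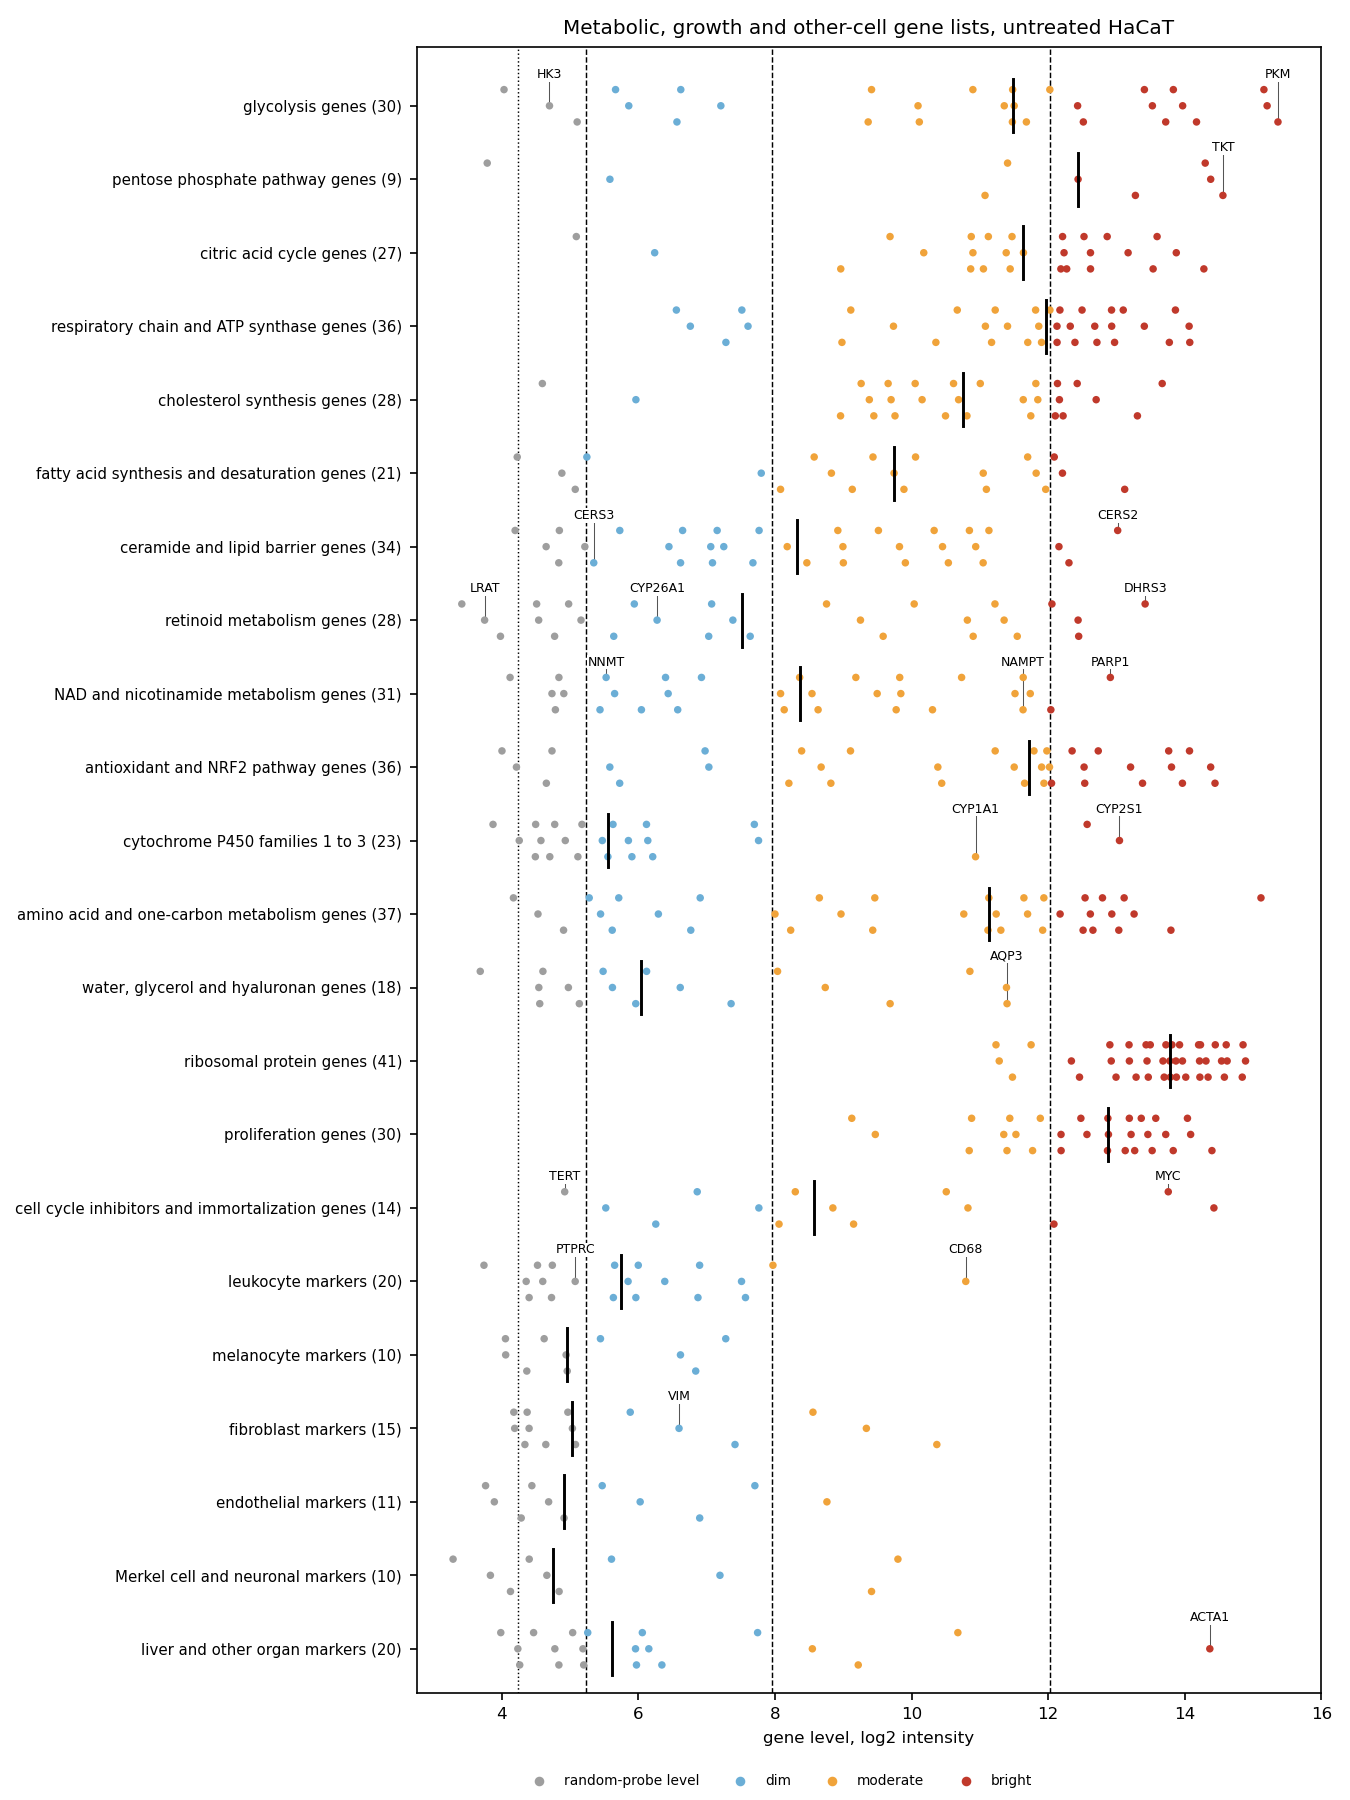
Gene level (horizontal axis, log2 intensity) of every member of the metabolic, growth and other-cell lists (rows, number of members in brackets) in untreated HaCaT cells, each point 1 gene in the colour of its class and the black bar the list median. All 41 ribosomal and 30 proliferation genes lie right of the median line at 7.95, while all 10 melanocyte markers lie left of it.

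Families picked by symbol after the lists had been described gave a further reference for low and high values on this array. Of 376 olfactory receptor genes, which sense odours in the nose, 264 (70.2%) lay at the random-probe level, 104 were dim, 8 moderate and none bright. Their median was 4.49 and their 95th percentile 7.12, an intensity of 139.3, and the highest was OR4C6 at 9.64. So single dim or even moderate values also occur in a family that epidermis is not known to use widely. Of 32 beta-defensin genes 24, of 26 taste receptor genes 17 and of 13 interferon alpha genes 10 lay at the random-probe level. Of 76 hair keratin-associated protein genes 37 were dim, 21 lay at the random-probe level, 18 were moderate and none was bright. Their random-probe-level share of 27.6% was near the 23.5% of all genes. At the other end 99 of 117 ribosomal and 30 of 39 proteasome subunit genes were bright. By chromosome, the bright share ran from 4.32% of 301 genes on chromosome 21 to 14.9% of 1288 genes on chromosome 17.

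Transcripts of a gene are the only repeated measurement on 1 array. They are different probes on the same RNA, and they may belong to different splice forms, so their spread is not an error between samples. Of 11859 genes with more than 1 transcript, 2940 (24.8%) had transcripts more than 2 apart on the log2 scale and 793 (6.69%) more than 4 apart. The median distance between the highest and the lowest transcript of a gene was 0.94, and 34 genes held both a random-probe-level and a bright transcript. Among the members the widest were KRT1, DST, SPRR1A, KRT86 and KLK5 in the keratinocyte lists. The 6 transcripts of DST, whose products include an epidermal plakin and forms of muscle and nerve, ran from 4.88 to 12.76. SPRR1A ran from 3.84 to 8.83, KRT86 from 6.35 to 10.81 and KLK5 from 8.98 to 12.93. In the metabolic lists NDUFS1 ran from 4.54 to 12.61, ATP5MC3 from 6.21 to 13.26, ATP5MC2 from 6.25 to 13.18, PFKM from 6.50 to 13.04 and SDHC from 7.93 to 13.44. In the receptor lists EPHB2 ran from 6.25 to 11.67, NR1I3 from 4.51 to 9.43, ESRRB from 4.16 to 8.26, HRH4 from 3.70 to 7.70 and PPARA from 4.63 to 8.50. RPL15, a ribosomal protein gene that every cell uses, ran from 4.61 to 13.43, so a transcript at the random-probe level does not show that its gene is silent. The class of these genes depends on which transcript is read.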

How the data were processed

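RNA of untreated HaCaT cells was measured on 1 single-colour NimbleGen array. Per the labels and file headers, the deposited values are RMA gene calls, an intensity on a linear scale that the authors background-corrected, normalized over all 3 arrays and summarised over 3 probes per transcript. The control's values therefore depend on the other arrays. Which software ran RMA is not given in the sources used, and a deposited standard-error column of undefined unit was not used. Intensities were turned into log2 and averaged over the transcripts of a gene, with random probes and 2086 unnamed transcripts left out. Names were updated through RefSeq GRCh38.p14 (20225 of 23611 matched). Coordinates are hg18 unless GRCh38.p14 is named. Members and lists were chosen with earlier results of these data known. Named were the 10 brightest genes, all members of lists of up to 20, the 5 highest and 5 lowest of longer lists, the 5 widest per family, cluster members and a fixed set of marker genes. Random-probe level means under 2-fold above the random probes and bright the 90th percentile or above. The steps were run on simulated levels with almost no noise between transcripts of a gene. That run checks the code and not the classes of real genes, whose transcripts had a pooled SD of 1.21. Python 3.11.15 and pandas 2.3.3 were used. The number of arrays limits the precision. Some genes that this rule names are not reported here.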

Additional observations from a re-analysis of the deposited data

Results flagged for a closer look

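Signal above the class bound also occurred in transcripts that entered no list because the file gives them no gene name. Of 2086 such transcripts, 122 (5.85%) were bright, 633 moderate, 785 dim and 546 at the random-probe level. This array is itself the untreated control, and the series holds no blank array, so the random probes at 18.9 serve as the background. The brightest unnamed one had an intensity of 55677, the highest of any transcript on the array. All 4 unnamed transcripts that the file places on the mitochondrial chromosome were bright, between 15.37 and 15.76 on the log2 scale.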

How the results depend on the processing

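Counts of genes by class, over all genes and in the keratinocyte, junction, receptor and metabolic families, gave 11 results under 9 other settings, which differed in the gene level, the class bounds, the transcripts used and the source of the values. Of 94 values 87 stayed within 1.5 times the main count. Part of these could not move. The number of all bright genes follows from the percentile and the number of genes in a setting. Moving the random-probe bound cannot change a bright count, and moving the bright bound cannot change a random-probe-level count. The 87 is therefore no measure of how stable the classes are. With the random-probe level set at under 4-fold, it took in 61 instead of 33 keratinocyte and 82 instead of 50 metabolic genes, and dim genes went from 6262 to 3797. With the 80th percentile as the bright bound, bright genes went from 2362 to 4723, metabolic ones from 93 to 158 and receptors from 11 to 33. Both changes follow from moving a bound. In the authors' value table, which lists no value under 50 and so gives no random-probe-level count, 7 receptors were bright. Its median and bright bound were taken from its own 16770 genes, which gave 8385 dim and 1677 bright genes. With the low values missing, these bounds are not the main ones. This setting therefore cannot separate a change of values from a change of bounds. Single genes also changed class. With the value table, where bounds and values both differed, 4537 of its 16770 genes (27.1%) fell in another class. With RefSeq NM transcripts alone 12.0% did so, with the brightest transcript 11.4%, with the 4-fold bound 10.4% and with the 80th percentile 10.0%. The other settings moved from 1.33% to 4.68% of genes. The setting with RefSeq NM transcripts alone was chosen after seeing the data. No paired analysis was possible because each group holds 1 array, and no replicate could be left out. Probe signal near that of the random probes limits the low end: an RNA at the random-probe level may be present below what these probes show.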
